A study of Homo sapiens with 6 samples.

Results

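Among the 20-nt bins that passed peak calling in all 3 CELF1 immunoprecipitations of melanoma cells, 2392 of 282942 (0.845%) had no input read in any of the 3 samples. These bins were chosen from the measured values themselves, namely a covariate of 0.01, which the deposited lists carry where the input has no read, in each of the 3 lists. Their lack of input is therefore the selection and not a result. The 3 lists together held 1589987 different bins.

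The study pulled down CELF1 (also CUGBP1) with its bound RNA from SK-Mel-103 and from UACC-62 cells, both established lines of human melanoma, and sequenced that RNA (IP) and RNA of the same lysates (input). Of the 6 samples, SK-Mel-103 gave 1 IP (replicate 1) with its input, and UACC-62 gave 2 (replicates 1 and 3) with theirs. The labels name no treatment or genetic change for either line. Input values were taken here from the covariate that each IP list carries. The labels describe the RNA as poly A+ and also name a step that removes ribosomal RNA, and they name PCR amplification but no molecular identifiers, so that counts are of reads and not of molecules. No test across conditions was made, and all values are descriptions of these samples. Where 3 values stand together they are those of SK-Mel-103, then UACC-62 replicate 1, then replicate 3.

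CELF1 is an RNA-binding protein that controls splicing, stability and translation of its targets. It recognises GU-rich elements (GREs), most often studied in the 3′ UTRs of short-lived mRNAs, where it is known to promote deadenylation and decay. In RNA immunoprecipitation the input serves to correct for transcript abundance, since a rich transcript gives reads everywhere. A bin without input reads offers no read for such a correction, and the lists carry a placeholder value there, described below.

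The bins with the most IP reads differed from the remainder in base composition and surroundings, and their sequences are shown first for that reason. For each gene (or position outside genes) the bin with the highest value of its poorest sample was taken, and the 12 highest are given 5′ to 3′ on the transcript strand (GRCh37), in lower case because no motif is marked.
MYO1D antisense, chr17:31149541-31149560, plus strand: ctcctccccgttcactgccg
No gene, chr9:108319761-108319780, plus strand: gcaagatggtgaggacgccc
COMMD3-BMI1 intron, chr10:22609481-22609500, plus strand: gtcccggcccggcgcggagc
SSH3 antisense, chr11:67070981-67071000, minus strand: ggcgccacccgggcctggca
PRRX2 antisense, chr9:132482821-132482840, minus strand: gcaggggggacccaagtcct
No gene, chr21:34864041-34864060, minus strand: gaccacctccgctcggggcg
No gene, chr16:80838521-80838540, plus strand: ccggcccggcccccggggcg
No gene, chr1:1142101-1142120, plus strand: agcccggtcccccgcaggtc
MIB2 intron, chr1:1565121-1565140, plus strand: tcagctggtggcccgcgggt
TAF1L antisense, chr9:32629861-32629880, plus strand: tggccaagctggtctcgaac
PTPN6 intron, chr12:7070141-7070160, plus strand: cctgccctgtgtccttggct
ANKRD30BL antisense, chr2:133012021-133012040, plus strand: tgggctgacccagcgggctg

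Between 12 and 20 of the 20 bases of these bins were G or C, with a median of 15. None of the 12 shown lay in an exon of a protein-coding transcript on the sense strand. With 1 bin kept for each gene, the bin on the other strand at the SSH3 position is not shown, which lay in the 5′ UTR of SSH3 and had 444, 262 and 468 IP reads.

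The second set holds 6 of the 10 bins in 3′ UTRs with the most IP reads by the same measure, leaving out bins whose 20 bases occur elsewhere in the genome. It was chosen after values were seen. All 3 of the 10 bins that hold a marked word are among the 6, so that the set overstates their share. No word was marked in the first set, where the PTPN6 bin holds TGTG. Capitals mark the words TGTG and TGTT (UGUG and UGUU in the RNA).
UBXN7 3′ UTR, chr3:196075701-196075720, minus strand: cTGTGcatgctttgtatgag
PPP3CB 3′ UTR, chr10:75203661-75203680, minus strand: aacatgaatgtaacattaga
RNASEH1 3′ UTR, chr2:3591901-3591920, minus strand: gtagttcagcatggtcctct
E2F3 3′ UTR, chr6:20493301-20493320, plus strand: atagcaatcgttttatttaa
RCCD1 3′ UTR, chr15:91505441-91505460, plus strand: tggaatccTGTGtaTGTGct
PDGFA 3′ UTR, chr7:537181-537200, minus strand: agaatgcTGTGTTcccacgc

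The third set shows bins that hold a GRE. GREs were 11-nt stretches within a given number of mismatches of TGTGTGTGTGT or TGTTTGTTTGT, searched on the transcript strand only. Both elements are repeats that hold UGU words, which overlap in the former. With at most 1 mismatch, 34 of the 2392 bins held a GRE inside their 20 bases, and 5 had a perfect one. The following 7 were among those with the most IP reads (again chosen after the values were seen), and capitals mark the 11 bases that matched best.
SLC18A2 antisense, chr10:119028501-119028520, minus strand: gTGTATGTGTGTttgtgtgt
CHFR intron, chr12:133527541-133527560, minus strand: gtgtgtcTGAGTGTGTGTgt
GAK intron, chr4:863141-863160, minus strand: accctgcaTGTGTGTATGTg
DIP2C intron, chr10:705061-705080, minus strand: taTGTTTGTGTGTgccagaa
FBXO3 3′ UTR, chr11:33765861-33765880, minus strand: catctgcTGTTTGTGTGTgt
IRS1 3′ UTR, chr2:227597441-227597460, minus strand: aatgctgtaTATGTGTGTGT
TNRC6C 3′ UTR, chr17:76103341-76103360, plus strand: ttTGTTTGTTTGTtttttgt

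The GU repeats are not unique sequence. The 20 bases of the SLC18A2 antisense bin occurred 172 times in the genome, those of CHFR 27 times, those of GAK 4 times and those of TNRC6C 1955 times, whereas the bins of DIP2C, FBXO3 and IRS1 occurred 1 time each. Over all members with reference bases, 469 of 2381 (19.7%) had 20 bases that occur more than once, compared with 17.3% of the common bins that had input in all 3 samples.

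Depth was given by the IP reads in the listed bins, 10958459, 11333805 and 14436573. The bins without input in every sample took 0.403%, 0.453% and 0.422% of them. SOX10 and MITF, transcription factors of the melanocyte lineage, had listed bins in all 3 samples (735, 920 and 799 IP reads for SOX10, and 327, 9432 and 3631 for MITF). The pigmentation genes DCT and TYR had listed bins in both UACC-62 replicates and none in SK-Mel-103, MLANA had 28, 674 and 1734 IP reads, and PMEL and TYRP1 had no listed bin in any sample.

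Missing input was shared between samples. Of the common bins, 4.84%, 4.22% and 6.61% had no input read in the respective sample. Where both other samples lacked input, these shares were 39.9%, 48.3% and 59.8%, and where neither did they were 2.77%, 1.70% and 3.89%. In all, 21640 lacked input in 1 sample and 7763 in 2 samples, leaving 251147 with input in all 3.

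The covariate does not treat these bins as empty. Bins with input carry whole multiples of a small step, and on that scale 0.01 is as large as 171, 388 and 326 input reads. The lowest IP count of a listed bin without input was 6, 5 and 4 reads, and 4 reads in each sample among bins with a single input read. How this placeholder acted on which bins passed was not tested.

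Most of these bins were shallow. In SK-Mel-103 the median was 9 IP reads (quartiles 7 and 14, highest 5923). In replicate 1 of UACC-62 it was 11 (7 and 18, highest 3343), and in replicate 3 it was 9 (6 and 15, highest 8907). Common bins with input in all 3 samples had medians of 13, 12 and 17 reads. The study took only peaks with more than 30 reads into its further analysis, a filter not applied in choosing the bins here. More than 30 IP reads were found in 102, 205 and 164 of the bins without input, that is 4.26%, 8.57% and 6.86%, whereas 18.7%, 18.7% and 27.2% of all common bins exceeded that depth. In all 3 samples at once 31 bins did so (1.30%, 95% Wilson interval 0.915 to 1.83%), against 10.9% of all common bins. All other bins described here fell short of that filter in at least 1 sample. IP reads entered the peak call together with the input, so that these depths are not independent of the selection. Neighbouring bins share fragments, and this and all other intervals cover counting error only.

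**Figure D1:**
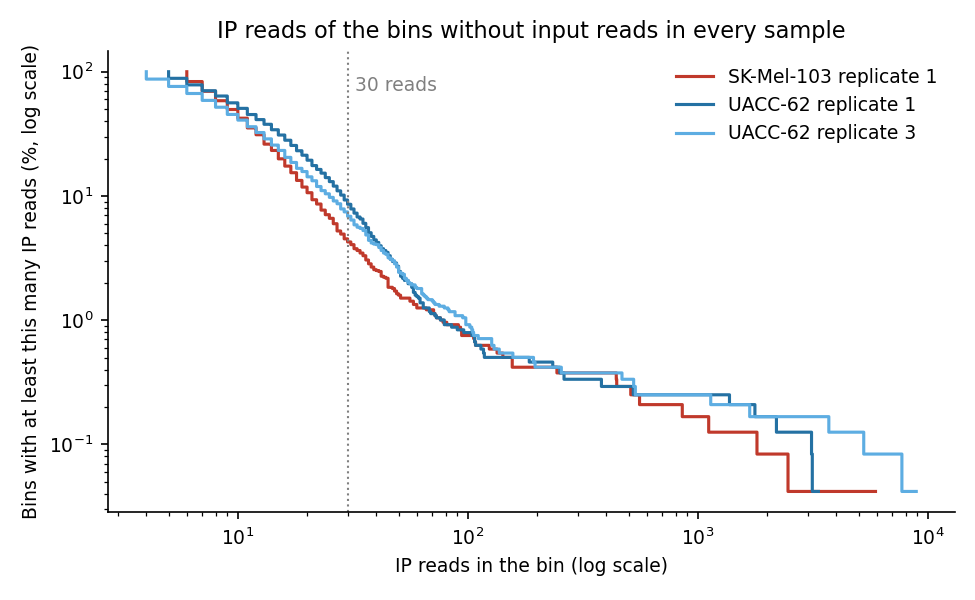
Share of the 2392 bins without input reads (y axis, %, log scale) that reached a given number of IP reads (x axis, log scale) in each of the 3 samples, with a dotted line at 30 reads. The curves fall together to below 10% at 30 reads, and a tail of few bins extends to 5923, 3343 and 8907 reads.

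Just outside the selection lay 4093 common bins with exactly 1 input read in 1 sample and none in the other samples. The read was in SK-Mel-103 in 1848 of them, and in replicate 1 and replicate 3 of UACC-62 in 1383 and 862. Their median IP reads were 9, 10 and 9, and 46.7% lay in 3′ UTRs and 30.5% in introns, so that in IP reads they were like the bins just inside.

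The bins without input lay in other parts of transcripts than the bulk of the CELF1 bins. Each bin was placed by its centre on the GENCODE annotation, a bin in any coding transcript's 3′ UTR counting as such first. In 3′ UTRs were 961 bins (40.2%, 95% interval 38.2 to 42.2%), compared with 64.4% of the bins with input in all samples. Only 74 bins (3.09%) lay in coding regions, compared with 28.5%, and 7 in 5′ UTRs. Introns held 805 bins (33.7%, 31.8 to 35.6%), compared with 3.0%. Counted as intron was any place within a protein-coding gene outside the exons of coding transcripts, so that exons of other transcripts are included. Outside any gene lay 342 bins (14.3%), compared with 1.43%. Members were chosen for lacking input and the compared bins for having it, and input reads themselves differ between transcript regions. These shares and those of the intermediate bins are therefore tied to the selection, and its part in them was not tested.

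The remaining bins comprised 80 in introns and 62 in exons of non-coding genes, and 61 antisense to a protein-coding gene. Of the exonic non-coding bins 50 were in lncRNAs, the long RNAs without a known coding frame. The change ran through the intermediate bins, since the intron share was 17.2% in bins lacking input in 1 sample and 27.8% in those lacking it in 2, and the coding share fell by stages from 28.5% to 7.24%, 3.90% and 3.09%. Seen from the regions, 5.66% of the common intron bins, 5.54% of those outside genes and 0.101% of those in coding regions had no input in any sample.

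**Figure D2:**
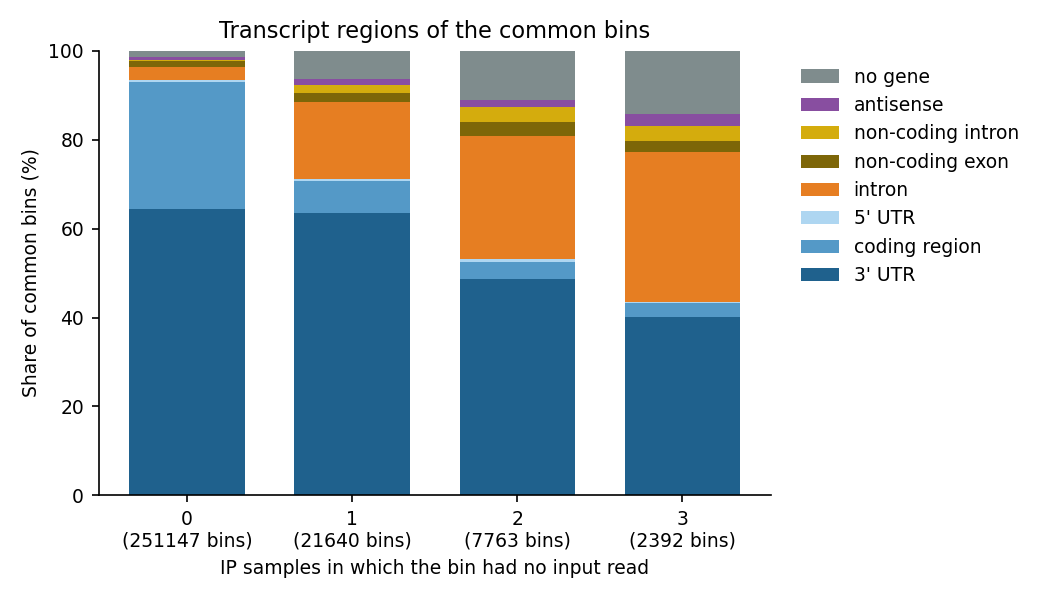
Share of common bins (y axis, %) in each transcript region, by the number of IP samples in which the bin had no input read (x axis, bin numbers in brackets). From left to right the 3′ UTR share falls from 64.4% to 40.2% and the coding share from 28.5% to 3.09%, while introns rise from 3.0% to 33.7% and bins outside genes from 1.43% to 14.3%.

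The transcript strand was the reverse of the listed strand. Read so, 1847 of the bins fell into protein-coding genes and 1042 of these into exons of coding transcripts. On the listed strand itself the numbers were 157 and 37.

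By region the median IP reads differed little. Bins in 3′ UTRs had medians of 9, 10 and 10 reads, those in introns 9, 11 and 7, and those outside genes 10, 11.5 and 10. Antisense bins stood higher with 16, 14 and 24 reads, but 20 of these 61 bins came from 1 stretch opposite SLC18A2, described below. The highest value of any 3′ UTR bin was 78, 73 and 83 reads, far below the highest antisense (5923, 3122 and 8907) and intron bins (1115, 3146 and 5265).

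Most of the richest bins stood alone. The richest itself did not. Antisense to MYO1D, which encodes an unconventional myosin, it had 5923, 3122 and 8907 IP reads, which were 43.2%, 34.6% and 52.4% of the reads within 100 nt, with 8, 7 and 9 other listed bins there. The bin without a gene on chromosome 9 had 2467, 1373 and 1681 reads, and no other listed bin lay within 100 nt of it in any sample. In the COMMD3-BMI1 readthrough gene the counts were 856, 3146 and 5265, at least 99.9% of the reads within 100 nt in each sample.

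Counts of the richest bins varied widely between samples. On chromosome 21 the bin without a gene had 244, 3343 and 7714 reads, low in SK-Mel-103 and high in both UACC-62 replicates. On chromosome 1 the bin at 1142101 had 558, 524 and 63 reads, so that UACC-62 replicate 3 was far below the other samples. The bin antisense to ANKRD30BL had 1808, 52 and 193 reads and lay 1152 nt from RNA5-8SP5, a ribosomal RNA pseudogene. It held 91.9% of the reads within 100 nt in SK-Mel-103, but 6.83% and 21.3% in the UACC-62 replicates. The TAF1L antisense bin had 58, 107 and 70 reads (76.3%, 87.0% and 79.5% of the reads within 100 nt), and its 20 bases occurred 1913 times in the genome.

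The share that a bin took of the IP reads in all listed bins within 100 nt was high in most of these bins. Of the 12 richest bins 9 held over 90% of them in every sample, the others being those antisense to MYO1D, TAF1L and ANKRD30BL. Among the 31 bins with more than 30 reads in all samples 18 (58.1%) did so, and 15 (48.4%) had no other listed bin within 100 nt in any sample, compared with 115 of the 2392 (4.81%). Of those 31 bins 9 were antisense, 9 outside genes, 6 in 3′ UTRs, 5 in introns, 1 in a 5′ UTR and 1 in a coding region. At 8 positions both strands were members.

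The richest 3′ UTR bins shown above did not stand alone. The UBXN7 bin, in the transcript of a cofactor of the p97 ATPase, had 42, 73 and 83 IP reads, which were 4.74%, 6.35% and 6.20% of the reads within 100 nt. The PPP3CB bin, in the transcript of a calcineurin catalytic subunit, had 78, 50 and 41 reads. For RNASEH1, a ribonuclease H, the counts were 37, 43 and 54, and for the cell cycle transcription factor E2F3 they were 37, 51 and 32. The growth factor transcript PDGFA had 30, 30 and 29 reads and RCCD1 31, 33 and 30. SK-Mel-103 was the lowest sample in UBXN7 and the highest in PPP3CB, whereas PDGFA and RCCD1 were close to equal in all 3. These counts are not scaled to depth, and ranking by the poorest sample favours bins with even counts. Over the 10 richest 3′ UTR bins with bases that occur once in the genome the share of the reads within 100 nt ran from 4.29% to 20.9%, and 3 of the 10 held a marked GU word.

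**Figure D3:**
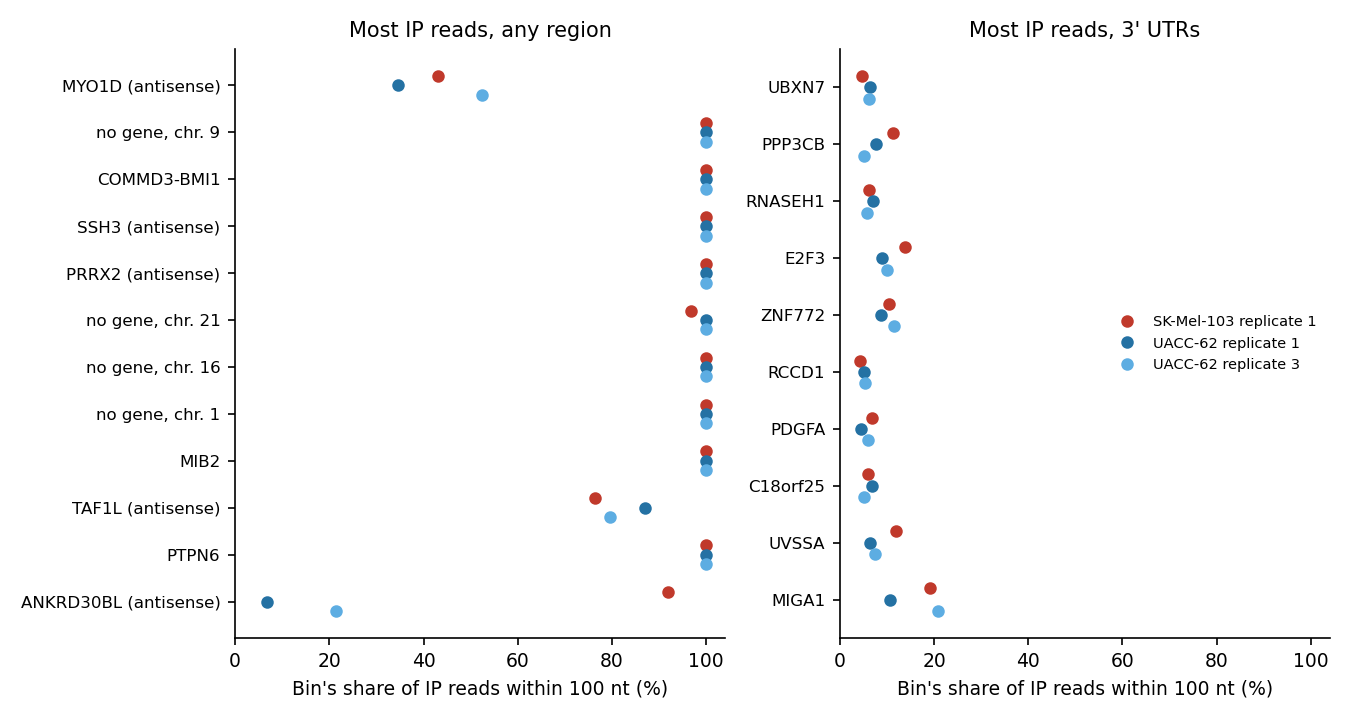
Share of the IP reads in listed bins within 100 nt that fell into the bin itself (x axis, %), for the 12 richest bins of any region (left) and the 10 richest in 3′ UTRs (right), with 1 point for each sample. Bins whose bases occur more than once in the genome were left out on the right only. Of the 12 bins on the left 9 lie above 90% in every sample, whereas those on the right lie between 4.29% and 20.9%.

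Identical counts at distant places also occurred. An intronic bin of PIEZO2 and a bin outside genes on chromosome 4 both had 71, 21 and 98 IP reads, and 2 bins outside genes, on chromosomes 1 and X, both had 156, 38 and 127 reads. Whether the same reads were counted at both places was not tested. PLCXD1, in the pseudoautosomal region, was listed on both sex chromosomes, counted as separate genes, with 11 bins without input on each. Only 2 of these were at the same place on both, and of the 23 common bins shared by both copies 1 had the same IP count in SK-Mel-103.

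The neighbourhood of the bins was poor in input but mostly not empty. For 2043 of the 2392 bins another listed bin lay within 100 nt in every sample. Around these the other listed bins had a median of 7, 6 and 4 input reads, with medians of 72, 117 and 77 IP reads. Summed over all neighbours this gave 6.82, 10.5 and 8.48 IP reads for each input read. Around every 50th bin with input in all samples (5023 bins) the sums gave 1.38, 1.12 and 1.78 IP reads for each input read. This contrast is tied to the selection. Members were chosen for lacking input and the 5023 bins for having it, and neighbouring bins share fragments. The 5023 bins were also not required to have a listed neighbour in every sample. Input outside the listed bins is not known from these lists. Without any input read in the listed neighbours were 8.96%, 9.45% and 20.4% of the 2043 bins.

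The 1847 bins in protein-coding genes fell into 744 genes, 9.06% of the 8215 with a common bin. One such bin was found in 467 genes, 2 to 4 in 200 genes, 5 to 9 in 49 genes and 10 or more in 28 genes. These 28 genes held 557 bins (30.2%). The 12 genes with the most held 375 bins, only in introns in 7 of them and only in 3′ UTRs in 3.

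DIP2C, a member of the disco-interacting protein family, had 94 bins, 32.1% of its 293 common bins and all in introns. Of these 89 lay in the first intron of the canonical transcript. The median IP reads were 9 in SK-Mel-103 (range 6 to 21), and 17 (5 to 96) and 7 (4 to 18) in both UACC-62 replicates. UACC-62 replicate 1 was thus the highest, and SK-Mel-103 lay between both UACC-62 replicates. Only 23 of the common bins of DIP2C had input in all samples.

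CHFR, a ubiquitin ligase of the mitotic checkpoint, had 29 intron bins, 50.9% of its 57 common bins. They spanned 3600 nt, all before the 5′ end of the canonical transcript. All 29 had 20 bases that occur at least 2 times in the genome (median 2, highest 27). Reads are longer than a bin, and whether the reads of these bins also fit other places was not tested. Median IP reads were 12, 22 and 9, again highest in UACC-62 replicate 1. EHMT1, a histone methyltransferase, had 19 bins in intron 18 within 3700 nt, with medians of 18, 20 and 5 reads, low in UACC-62 replicate 3 alone.

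SRFBP1, which encodes a protein that binds serum response factor, had 44 intron bins with medians of 10.5, 15.5 and 16 reads. They lay 4142 to 28942 nt past the 3′ end of the canonical transcript, within the reach of longer annotated ones. The same place was taken by the 22 bins of the checkpoint kinase CHEK1 (medians 13, 8.5 and 8), the 20 of ZNF800 (7.5, 15.5 and 13), 17 of the 18 of GNL3L (all 18 with medians of 9.5, 8 and 7.5), which encodes a nucleolar GTPase, and the 17 of the Pumilio family gene PUM3 (8, 8 and 7).

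In 3′ UTRs ZNF483 led with 40 bins, 28.4% of its 141 common bins, with medians of 9, 12 and 8.5 reads. UVSSA, required for transcription-coupled DNA repair, had 28 with medians of 10, 18.5 and 21, higher in both UACC-62 replicates. NOPCHAP1, a chaperone of small nucleolar ribonucleoprotein assembly, had 25 with medians of 10, 10 and 9. ZNF264 had 19, of which 18 were in the 3′ UTR, with medians of 8, 11 and 12.

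These medians are unscaled reads. Among the 12 genes the median of UACC-62 replicate 1 exceeded that of replicate 3 in 9, and in all 12 after division by the sample's listed IP reads. After that division both UACC-62 replicates lay above SK-Mel-103 in 4 genes and below it in 4. Bins without input were listed from 6, 5 and 4 reads upwards, so that the selection allowed UACC-62 replicate 3 the lowest values. With a single SK-Mel-103 sample and replicates that differ this much in these selected bins, cell lines were not compared by a test.

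Across all members, both UACC-62 replicates were at least 2-fold above SK-Mel-103 (IP reads divided by the sample's total) in 93 bins (3.89%), compared with 9.03% of all common bins. SK-Mel-103 was at least 2-fold above both in 174 bins (7.27%), compared with 10.5%. The median log2 difference between UACC-62 replicate 3 and replicate 1 was -0.61 over the bins without input and 0.05 over all common bins. In introns it was -0.93 and in 3′ UTRs -0.35. Replicate 1 of UACC-62 minus SK-Mel-103 gave a median of 0.06, and replicate 3 minus SK-Mel-103 gave -0.57. Over the bins these differences had SDs of 0.98 and 1.01, and that between the UACC-62 replicates 0.99. The lowest listed count without input was 6, 5 and 4 reads, compared with 4 in each sample among bins with input. Most members lay near that floor, and UACC-62 replicate 3 had both the lowest floor and the most listed IP reads. These differences and the 2-fold counts are therefore tied to the selection, and its part in them was not tested.

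**Figure D4:**
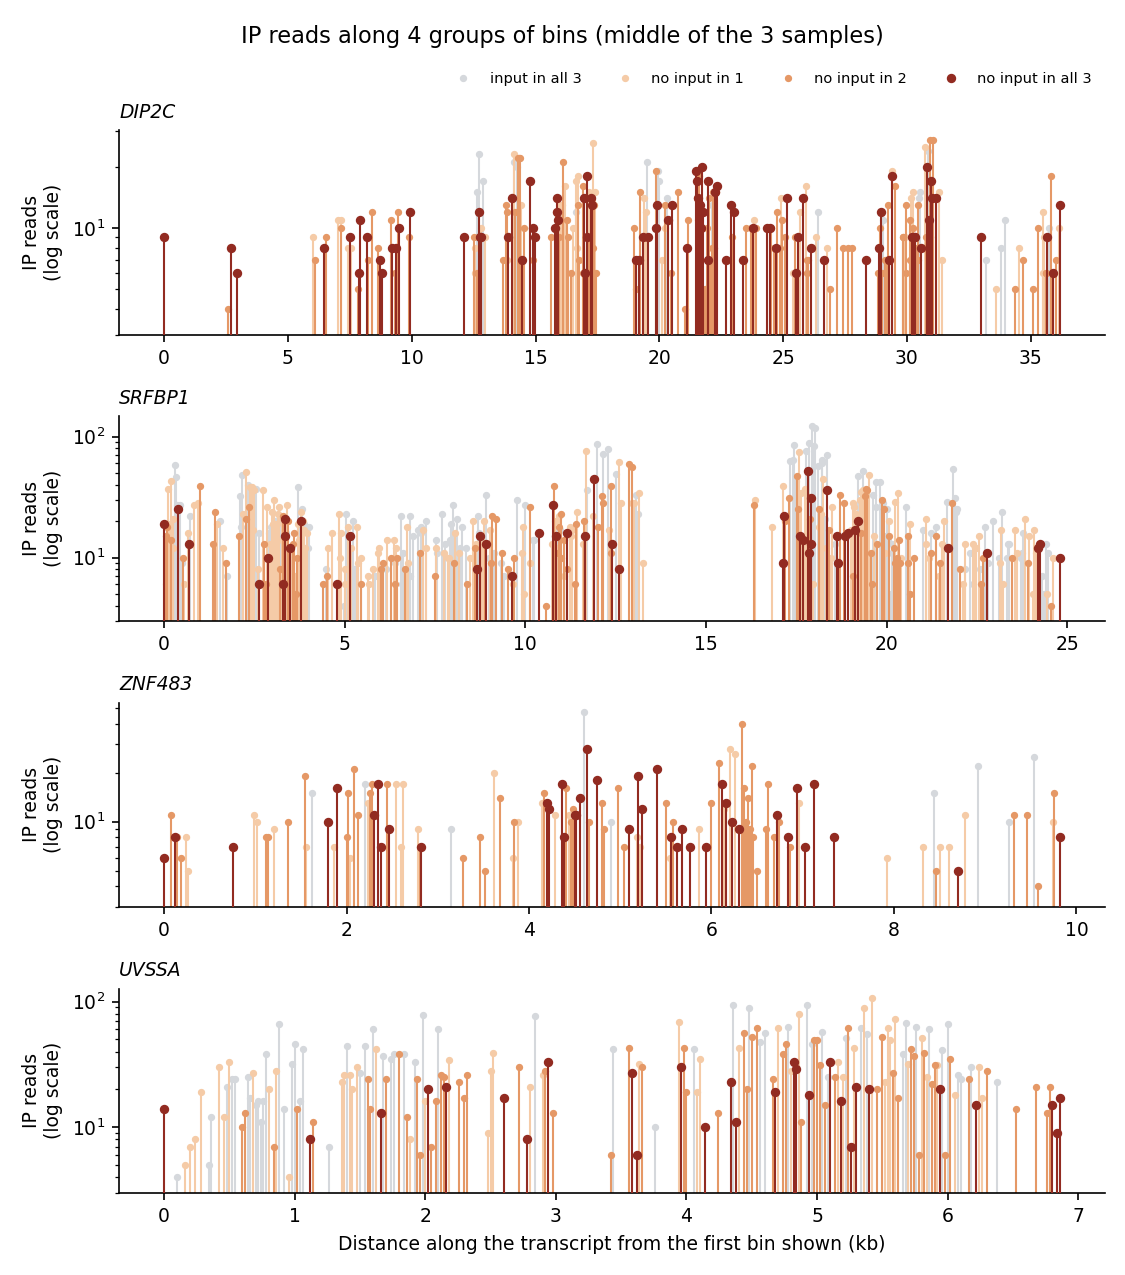
IP reads of the common bins (y axis, log scale, middle value of the 3 samples) along the transcripts of DIP2C, SRFBP1, ZNF483 and UVSSA (x axis, kb from the first bin shown, 5′ to 3′), coloured by the number of samples in which the bin lacked input. At DIP2C 86 bins without any input, 85 of them in its introns, spread over 36200 nt among 267 common bins, of which 21 had input in all samples, whereas in UVSSA 28 such bins lie among 194, of which 57 had input in all samples.

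Non-coding genes with such bins numbered 45. The lncRNA PVT1 led with 41 intron bins and median IP reads of 10, 17 and 6. SNHG14, the long host transcript of small nucleolar RNAs, had 16 (7, 8 and 10.5), and the unnamed lncRNA ENSG00000277879 had 12 (10, 8 and 16). ENSG00000280106 had 8 (15.5, 8.5 and 9), and the pseudogene transcript LINC01399 had 5 (10, 22 and 30).

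Many of the bins lay in the same transcripts, but they seldom touched. Another member lay within 100 nt for 27.1% of them, and 88.7% of the bins with input in all samples had another of their group that near. Only 215 of the 2392 (8.99%, 95% interval 7.91 to 10.2%) had a member as direct neighbour, compared with 67.9% of the bins with input in all samples, which are far more numerous. There were 90 pairs, 9 runs of 3 and 2 runs of 4 bins. The runs of 4 lay in the 3′ UTR of PLCXD1 on chromosome Y, with sums of 96, 88 and 28 IP reads, and in an exon of ENSG00000277879, with 36, 40 and 88. Runs of 3 with the most reads were in GAK outside the exons of its coding transcripts (52, 273 and 56), antisense to SLC18A2 (44, 69 and 65) and in the 3′ UTR of ZNF623 (45, 61 and 71).

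Joined over gaps of up to 5000 nt, the bins formed 982 clusters, of which 663 held a single bin. The 50 clusters with 8 or more bins held 893 (37.3%), and the 10 largest held 393 (16.4%). Such clusters were not counted for the other common bins, so that gathering particular to members is not shown. Members made up from 3.09% to 87.5% of the common bins within these 50 clusters. Examples are given here, picked after the values were seen. In the GAK cluster 14 of 16 common bins within 1300 nt had no input in any sample, and IP medians were 14, 41 and 12.5. Of these 14 bins, counted with introns, 13 lay in an exon of another transcript of GAK. In NDUFA10, a subunit of respiratory complex I, 10 of 18 common bins within 1360 nt of the 3′ UTR had none, with medians of 8.5, 19.5 and 7. In the RUNX1 intron 10 of 74 had none, with 25, 22.5 and 6.5. In each of these 3 picked clusters UACC-62 replicate 3 was the lowest sample, whereas in others, such as those of UVSSA and antisense to SLC18A2, it was the highest.

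Several clusters outside genes continued past the end of a gene on the same strand. Of the 342 bins outside genes 239 (69.9%, 64.8 to 74.5%) lay within 10000 nt downstream of the nearest protein-coding gene end, compared with 51.7% of such bins with input in all samples. The largest stretch followed OSBPL10, where 44 bins (38 outside genes) spread over 13260 nt with medians of 10, 22 and 17 reads. After PDCD10 followed 28 bins, 1496 to 10236 nt past its end, with medians of 14.5, 23.5 and 15.5, and after URI1 24 bins, 6431 to 17831 nt past its end, with medians of 9, 16 and 9. After ZNF792 22 bins (14 outside genes) began 8 nt past its end, with medians of 14, 9.5 and 8. Among them are the 8 bins of ENSG00000280106 given above.

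A further group lay 7115 to 9535 nt past the end of PDZD8, where 32 bins within 2440 nt had medians of 13, 14.5 and 24 reads. There they were antisense to SLC18A2, the vesicular monoamine transporter (20 bins), or in ENSG00000277879. Of 88 common bins in that stretch 2 had input in all samples. Of all 61 antisense bins 19 faced an exon of a coding transcript.

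Intron bins were also found past canonical ends. Of the 805, 187 (23.2%, 20.4 to 26.3%) lay past the 3′ end of the canonical transcript, by a median of 7436 nt, and 48 (5.96%) before its 5′ end. In intron bins with input in all samples these shares were 22.2%, by a median of 4547 nt, and 3.90%. An exon of another transcript of the gene covered 59 of the 805 (7.33%), compared with 18.0%. An exon of a non-coding gene covered 29 of the 805 (3.60%).

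Within 3′ UTRs the bins lay deeper. For the 859 bins inside the 3′ UTR of a canonical transcript, the median distance from the stop codon was 2182 nt (quartiles 1187 and 4251) in 3′ UTRs of a median 4929 nt. Bins with input in all samples lay at a median of 1091 nt (450 and 2211), in 3′ UTRs of a median 3180 nt. Relative to length the medians were 50.5% and 41.9% of the way along. The last 200 nt held 7.33% and 9.07%.

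The base composition differed with the lack of input. U made up 35.5% of the bases of the bins without input and 29.6% in those with input in all samples, and A 23.6% and 28.0%. G and C differed by less, with 21.3% and 21.5% G and 19.6% and 20.9% C. The word CUG, contained in the name of CUGBP1, was found in 34.4% and 34.0% of the bins.

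Bins with UGUG or UGUU numbered 716 of 2381 (30.1%, 28.3 to 31.9%), compared with 23.7% and 26.97% in bins without input in 1 and in 2 samples and 19.8% in bins with input in all. UGUG was in 16.0% and 9.89%, UGUU in 18.1% and 11.6%, and the U-run UUUUU in 7.94% and 5.50%. The share of U rose along with the GU words, and its part in them was not tested.

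GREs with up to 2 mismatches were found inside 106 bins (4.45%, 3.69 to 5.36%), compared with 0.989% of the bins with input in all samples. With 50 nt added on each side 595 bins (24.99%, 23.3 to 26.8%) had a GRE, compared with 19.3% and 15.1% of the bins without input in 2 and in 1 samples and 9.71% of those with input in all. With up to 1 mismatch the shares were 8.40% and 1.97%, and for perfect elements 2.56% and 0.595%, in bins without input in every sample and in bins with input in all. The sequence of a bin was not used in choosing it, but the groups differed in base composition. With 50 nt on each side the median share of G and C was 37.5% and 40%. The part of base composition in the GRE shares was not tested. The intervals of both groups did not overlap, but they treat bins as independent, whereas bins of 1 cluster share their surroundings.

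The order was kept within regions for most of them. In 3′ UTRs the GRE share with flanks was 24.3% (21.7 to 27.1%) and 11.9%, in introns 31.8% (28.7 to 35.1%) and 11.9%, and outside genes 18.7% (14.9 to 23.2%) and 12.9%. In coding regions it was 9.46% (7 of 74 bins, 4.66 to 18.3%) and 4.35%. For the GU words, coding regions showed no such difference, with 13.5% (7.51 to 23.1%) and 14.2%. Without DIP2C the GRE share was 24.7% and 9.71%, and with 1 bin per gene in each group 24.2% (21.3 to 27.4%) and 13.2%.

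**Figure D5:**
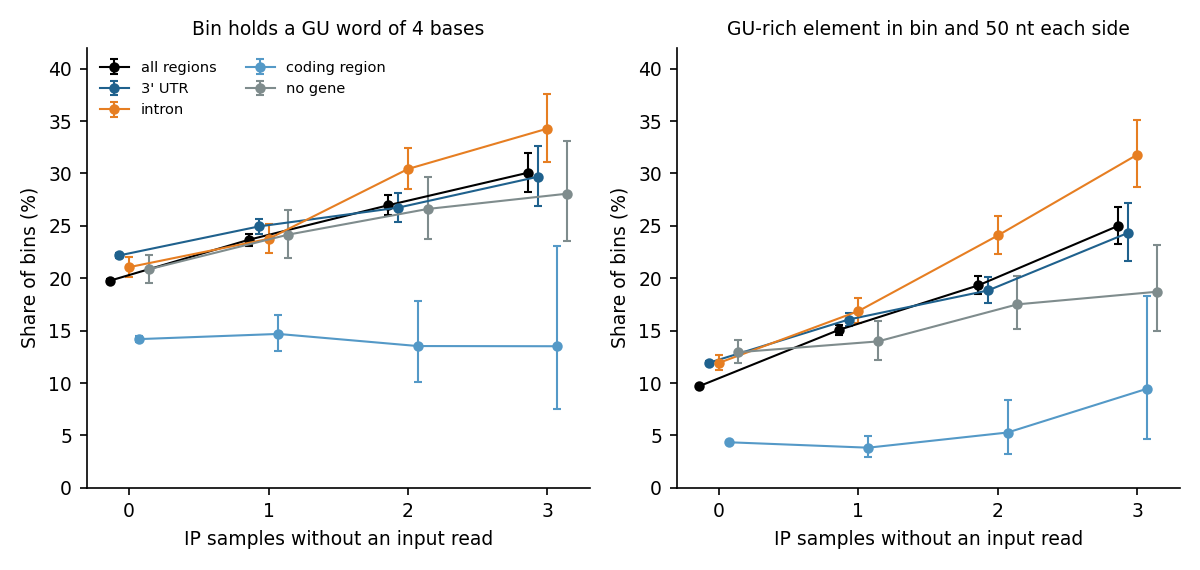
Share of bins (y axis, %) holding a UGUG or UGUU word (left) or a GRE within 2 mismatches in the bin and 50 nt on each side (right), by the number of IP samples in which the bin had no input read (x axis), for all regions and 4 regions apart. Bars are 95% Wilson intervals. Over all regions the shares rise from 19.8% to 30.1% and from 9.71% to 24.99%, whereas GU words in coding regions stay near 14.2%.

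Gene families had unequal numbers of such bins. The lists were drawn up with earlier results of these data known, and no test was made on them. Of the zinc-finger (ZNF) genes, which encode a large class of transcription factors, 35 of 188 with a common bin (18.6%) had a bin without input in every sample, compared with 9.06% of all protein-coding genes, and 3.03% of their common bins were such bins, compared with 0.685%. ZNF483, ZNF800, ZNF264 and ZNF805 (14 bins) contributed most. By the reads of the poorest sample, which is used for the other lists too, the strongest bin of ZNF805 had 18, 18 and 27 IP reads and that of ZNF800 27, 53 and 66.

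Both CELF family genes with a common bin had members in their own 3′ UTRs, CELF2 with 7 of 149 common bins and CELF1 with 2 of 362. Together these were 1.76% of their common bins, compared with 0.685% in all protein-coding genes, and 7 of the 9 lay in CELF2. With only 2 genes this is not a trait of the family. The strongest of CELF2 had 20, 19 and 9 reads and that of CELF1 21, 14 and 9. Of the 37 genes tabulated for the CELF1 network, a list that the study chose on these samples among others, 2 had members. DEK, which the study names among the direct targets in that network, is not in that list and was added here. It had no members. CDC20, an activator of the anaphase-promoting complex, had 2 (11, 10 and 13 reads in one, and 19, 9 and 16 in the other), and BIRC5, which encodes survivin, had 2 in its 3′ UTR, the one richer in its poorest sample with 17, 5 and 24.

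In the melanocyte lineage list MITF alone had members, 3 in introns, of 4 genes with a common bin, and its strongest had 10, 47 and 9 reads. Of 82 ribosomal protein genes with a common bin only RPL5 had members (2 bins), and of 65 histone genes none had. For the nuclear-encoded respiratory chain 2 of 87 genes did, NDUFA10 with 11 and NDUFS1 with 2. Collagens, laminins and integrins gave 3 of 22 genes (4 bins), solute carriers 7 of 115 (12 bins), kinesins 2 of 25 (2 bins), RAB GTPases 2 of 34 (3 bins) and ubiquitin-conjugating enzymes 1 of 31 (1 bin). By genes, all of these lists but the ZNF, CELF, melanocyte and integrin lists lay below the 9.06% of all genes. By bins, 0.933% of the common bins of the respiratory chain and 0.332% of those of collagens, laminins and integrins were members, compared with 0.685% of all, which turns the order of both.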

How the data were processed

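IP reads are deposited as unnormalized read counts per 20-nt bin, restricted to bins that passed Piranha with the input as covariate. The authors also gave a p-value for every bin, unchanged from the caller. A deposited ratio holds the covariate, and input reads were recovered from it as whole multiples of its step. The submitters' processing notes name TopHat2 2.0.4, Bowtie 0.12.7 and SAMtools 0.1.16, and reads were aligned to GRCh37, whose chromosome lengths held every bin. Bins common to the 3 lists were joined by position and strand. Genes came from GENCODE 44 mapped to GRCh37.

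The members, gene lists and rules were chosen with earlier results of these data known. Named were the 12 coding genes and 5 non-coding genes with the most members, the 12 richest bins, the 5 longest runs and listed genes with members. No test was run, and shares carry Wilson 95% intervals. Depth is the reads in listed bins and limits single bins to few reads. Scripts (Python 3.11.15, pandas 2.3.3, scipy 1.17.1) were tested on simulated data. Alternatives varied the samples, thresholds, strand, region order and gaps.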

Additional observations from a re-analysis of the deposited data

How the results depend on the processing

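Leaving out each sample in turn gave 7073 to 17476 bins, a 3′ UTR share of 31.4% to 42.9%, 1776 to 2770 genes, and 9.57% to 15.6% of bins with a direct neighbour. The highest count came without SK-Mel-103, followed by 8024 bins without UACC-62 replicate 1 and 7073 without replicate 3. A bin then needed neither to lack input in the sample left out nor to be listed in it, and 5989, 4950 and 4000 of these bins were common to all 3 lists. Allowing at most 1 input read in each sample gave 10816 bins, 18.2% with a direct neighbour. A p-value under 0.01 in every sample left 1590 bins. More than 30 IP reads in every sample left 31 bins in 13 coding genes with 19.4% in 3′ UTRs. The median of the poorest sample was 6 IP reads, and 13 in bins with at least 10 in every sample. With genes read on the listed strand there were 82 genes, with a 3′ UTR share of 0.920%. Counting each gene and region once gave 54.2%, and leaving out bins alone within 100 nt, an alternative added after seeing the data, 42.2%. With 1 bin allowed between neighbours 13.8% had one. The share with a GU word stayed between 28.5% and 29.9% under all of its alternatives. No paired analysis was possible because both cell lines share only replicate number 1 and no result comes from a test. Depth limits single bins, most of which had about 10 IP reads.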
